A study of Mus musculus with 6 samples.

Results

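The genes described here are the CCN family of secreted matricellular proteins together with core genes of YAP/TAZ signalling, in mouse tendon stem/progenitor cells. They were chosen by symbol as 10 rows of the deposited table of 15711 genes: the 5 CCN genes Ccn1, Ccn2, Ccn3, Ccn4 and Ccn5, the YAP/TAZ target genes Ankrd1 and Amotl2, the coactivator genes Yap1 and Wwtr1, and the DNA-binding partner gene Tead1. All 10 were found under these symbols, so the older names Cyr61, Ctgf, Nov, Wisp1 and Wisp2 were not needed. The study compared 3 RNA libraries of Vldlr-positive cells with 3 of Vldlr-negative cells, both sorted by flow cytometry from Col1a1-positive tendon stem/progenitor cells and then kept in medium with 20% fetal bovine serum. The design text gives the role of the Vldlr-positive cells in tendon repair as the question. Every sample is labelled with a Cre driver of the Col1 alpha type and a YFP reporter. The number after Col1 alpha in that genotype label differs from sample to sample, while the cell label is Col1a1 in all of them. A Col1a1 driver acts in other collagen-making mesenchymal cells as well as in tendon cells. Age, sex and strain of the mice are not in the labels, nor is whether the libraries came from separate cultures or animals. The p-values therefore measure only the spread between these libraries, which may be technical, and a difference in donor or culture cannot be told apart from the sort.

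CCN proteins are secreted into the matrix, where they bind integrins, heparan sulphate proteoglycans and growth factors. They share a modular build of an IGF-binding-protein-like, a von Willebrand type C, a thrombospondin type and a cysteine-knot module, and CCN5 lacks the last of these. YAP (Yap1) and TAZ (Wwtr1) are transcriptional coactivators that bind no DNA themselves and act through TEAD factors. The kinases of the Hippo pathway keep YAP and TAZ out of the nucleus, and matrix stiffness and cell tension bring them in. This control acts largely on protein location, which RNA levels do not measure. Ccn1, Ccn2, Ankrd1 and Amotl2 are widely used as readouts of YAP/TAZ activity.

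Promoter sequence is shown because TEAD factors bind the hexamer CATTCC, which reads GGAATG on the other strand. RefSeq promoter windows of GRCm38.p6, which run from 250 bases before to 50 bases after the annotated start, could be matched to 5 of the 10 genes: Ccn1, Ankrd1, Amotl2, Yap1 and Wwtr1. They are written 5′ to 3′ on the gene's own strand with the hexamer in capitals. The windows of the target genes Ccn1 (minus strand, chr3:145649936-145650235), Ankrd1 (minus strand, chr19:36119795-36120094) and Amotl2 (plus strand, chr9:102717554-102717853) and, beside them, of the coactivator gene Yap1 (minus strand, chr9:8004547-8004846) read as follows.
Ccn1: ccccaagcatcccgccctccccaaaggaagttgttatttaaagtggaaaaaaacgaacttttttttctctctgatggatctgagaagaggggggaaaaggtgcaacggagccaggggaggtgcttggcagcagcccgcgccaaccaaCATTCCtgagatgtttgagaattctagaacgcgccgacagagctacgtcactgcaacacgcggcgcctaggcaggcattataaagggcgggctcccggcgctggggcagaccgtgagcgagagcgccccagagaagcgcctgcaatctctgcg
Ankrd1: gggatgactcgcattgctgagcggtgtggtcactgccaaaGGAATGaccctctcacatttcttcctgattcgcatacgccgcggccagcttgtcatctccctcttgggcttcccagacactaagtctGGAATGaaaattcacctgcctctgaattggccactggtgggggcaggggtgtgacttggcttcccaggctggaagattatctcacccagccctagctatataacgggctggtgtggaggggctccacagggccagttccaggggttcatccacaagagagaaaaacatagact
Amotl2: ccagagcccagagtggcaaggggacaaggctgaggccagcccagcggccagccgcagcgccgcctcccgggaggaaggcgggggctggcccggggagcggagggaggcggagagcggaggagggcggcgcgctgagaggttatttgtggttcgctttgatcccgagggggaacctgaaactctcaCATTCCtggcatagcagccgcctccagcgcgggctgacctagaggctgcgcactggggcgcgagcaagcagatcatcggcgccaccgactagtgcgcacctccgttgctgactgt
Yap1: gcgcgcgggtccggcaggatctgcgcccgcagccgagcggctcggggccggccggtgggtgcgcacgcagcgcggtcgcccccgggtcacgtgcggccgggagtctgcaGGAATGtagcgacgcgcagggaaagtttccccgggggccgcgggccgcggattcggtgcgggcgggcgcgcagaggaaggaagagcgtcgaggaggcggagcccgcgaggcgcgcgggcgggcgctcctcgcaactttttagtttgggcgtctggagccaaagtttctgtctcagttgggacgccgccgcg
The hexamer began 103 bases before the start in Ccn1, 65 bases before it in Amotl2, 141 bases before it in Yap1, and 210 and 123 bases before it in Ankrd1. Wwtr1 has a pair of overlapping windows, and both hold the same GGAATG. The Amotl2 window belongs to a start inside the annotated gene. All 6 windows of the 5 genes therefore held a hexamer, against 14.7% of all 32851 windows and 12.1% of the 11499 windows of tested genes. Windows of genes that were higher and lower in Vldlr-positive libraries held it at close shares, 12.8% and 12.2%. A CArG box, the site of serum response factor, was in 0 of the 6 windows and in 1.63% of all windows. These are matches of letters in a short window, and distal sites were not analysed here.

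The values are RPKM (reads divided by exon length and by a scaled library total), and levels of different genes are set side by side on that scale. The exon length is that of all annotated exons of a gene merged, so an order of levels between genes rests on these lengths. Libraries held 17660241 to 17719560 reads, worked out from the RPKM steps, in the Vldlr-positive group and 17280540 to 17348846 in the Vldlr-negative group. Vldlr-positive replicate 1 stood apart from its group, with a chi-square per gene of 14.7 and 12.6 against its replicates, while the other pairs of replicates were at 2.35 to 5.24. Vldlr was listed at 4.13 ± 0.532 RPKM in Vldlr-positive and 0.796 ± 0.285 RPKM in Vldlr-negative libraries (SD, n = 3 each). Its Vldlr-negative values did not come out as whole reads and became whole when 5 RPKM was added, which would put that group at 5.80 ± 0.285 RPKM. Vldlr therefore gave no check of the sort, and the groups are named as labelled. Col1a1 was at 3027 ± 119 RPKM in Vldlr-positive and 1789 ± 86.2 RPKM in Vldlr-negative libraries. In bulk RNA, fewer cells of a type and less RNA per cell cannot be told apart.

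Of the 10 genes, 6 rose (Ccn1, Ccn2, Ccn4, Ccn5, Ankrd1 and Amotl2), 3 fell (Ccn3, Yap1 and Wwtr1) and Tead1 did not pass, in a limma fit over the 12116 genes that reached 1 RPKM in 3 or more libraries. In that fit 29.7% of all tested genes were called higher and 26.1% lower at an adjusted p under 0.05, 55.9% in all, so a call alone sets no gene apart here. Against a 1.5-fold change, which 4.43% of tested genes passed upward and 5.0% downward, the genes that rose were Ccn1, Ccn2, Ccn4, Ccn5 and Ankrd1 and the gene that fell was Ccn3. The other 4 genes did not pass that test. Ankrd1 entered the fit through the Vldlr-positive libraries, since 1 of 3 Vldlr-negative libraries reached 1 RPKM, so the filter favoured a rise. Of 425 tested genes that reached it in every Vldlr-positive but not every Vldlr-negative library, 342 were called higher. The other 9 of the 10 genes were above the filter in all 6 libraries, and 5 of them rose and 3 fell. The libraries of the groups did not overlap for the same 6 and 3 genes, as was so for 33.5% of all tested genes upward and 29.5% downward.

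**Figure D1:**
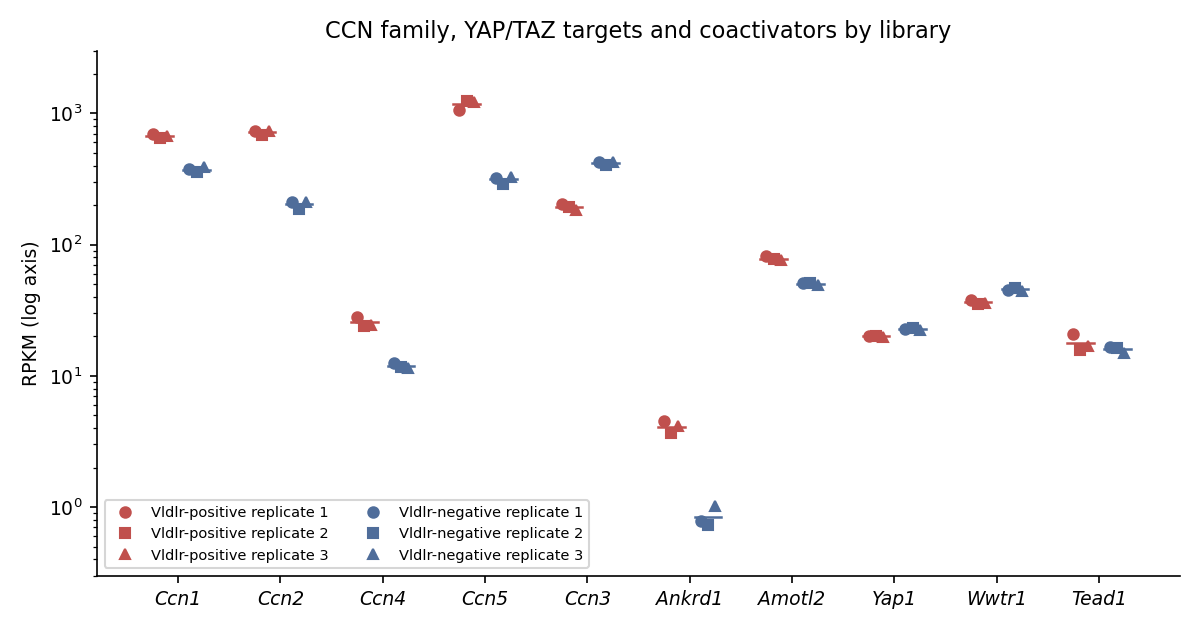
RPKM of the 10 genes on a log axis, each point a library, with Vldlr-positive libraries in red left of Vldlr-negative libraries in blue and a bar at each group mean (n = 3). Libraries of the groups do not overlap for 9 of the genes. For Tead1 they do, where Vldlr-positive replicate 1 lies at 21 RPKM above its replicates at 15.7 and 16.8 RPKM.

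The CCN family was higher in sum in Vldlr-positive libraries, and its make-up differed. Ccn2 and Ccn5 rose most within the family, Ccn4 and Ccn1 less, and Ccn3 fell. The summed level of the 5 CCN genes was 2780 ± 55.7 RPKM in Vldlr-positive and 1320 ± 62.8 RPKM in Vldlr-negative libraries (SD, n = 3 each). These genes took 0.595% ± 0.00990 of all reads in the Vldlr-positive group and 0.345% ± 0.0167 in the Vldlr-negative group.

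Ccn2, formerly connective tissue growth factor (chromosome 10, 24595442 to 24598683, GRCm38), is induced by TGF-beta and YAP/TAZ and is linked to matrix deposition in fibroblasts. It was at 737, 679 and 729 RPKM in Vldlr-positive replicates 1 to 3 and at 210, 188 and 213 RPKM in Vldlr-negative replicates 1 to 3. The groups were far apart relative to their spread. Vldlr-positive libraries held 3.51 times the mean level (limma log2 fold change 1.81, SE 0.07, adjusted p = 2.3e-07). Exons of the gene Gm15270 on the opposite strand cover 23.2% of the exon length of Ccn2. Gm15270 was listed at 0.295 RPKM in Vldlr-positive and 0.139 RPKM in Vldlr-negative libraries. The use of strand in counting is not given in the sources used here, and the effect of the overlap on the Ccn2 values was not tested.

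Ccn1, formerly Cyr61 (chromosome 3, 145646976 to 145649981), is an angiogenic and adhesive CCN protein and an immediate early gene as well as a YAP/TAZ target. It was at 693, 648 and 669 RPKM in Vldlr-positive libraries and at 375, 355 and 388 RPKM in Vldlr-negative libraries. The groups did not overlap and the rise was 1.8-fold (log2 fold change 0.84, SE 0.06, limma adjusted p = 9.4e-06). This is smaller than the rise of Ccn2, the family member closest to it in use as a readout. The level of Ccn2 was 1.06, 1.05 and 1.09 times that of Ccn1 in Vldlr-positive libraries and 0.559, 0.530 and 0.548 times in Vldlr-negative libraries. By RPKM, Ccn2 was thus the higher of the pair in every Vldlr-positive library and the lower in every Vldlr-negative library. The difference in the log2 ratio was 0.97, with an exact two-sided permutation p = 0.1, the smallest that 3 against 3 allows (0.1 also when adjusted over the 3 gene pairs compared).

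Ccn5, formerly Wisp2 (chromosome 2, 163820861 to 163833146), encodes the member without the cysteine-knot module and is known as a Wnt-regulated protein of mesenchymal cells. It was at 1061, 1237 and 1229 RPKM in Vldlr-positive libraries and at 323, 292 and 328 RPKM in Vldlr-negative libraries. The groups were far apart, with a 3.74-fold higher mean in Vldlr-positive libraries (limma log2 fold change 1.90, SE 0.08, adjusted p = 4.2e-07). By mean level it ranked 22 of 15711 genes in Vldlr-positive libraries, against rank 75 in Vldlr-negative ones. Replicate 1 was the low library of the Vldlr-positive group, and without it the log2 fold change was 1.97.

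Ccn4, formerly Wisp1 (chromosome 15, 66891320 to 66923201), another Wnt-regulated member that acts in bone formation, had the lowest level of the family. It was at 28.3, 24.0 and 24.4 RPKM in Vldlr-positive libraries and at 12.5, 11.7 and 11.5 RPKM in Vldlr-negative libraries. The groups did not overlap, at a 2.14-fold rise (log2 fold change 1.04, SE 0.07, limma adjusted p = 7.2e-06). Ccn5 was 37.5, 51.6 and 50.4 times the level of Ccn4 in Vldlr-positive libraries and 25.8, 24.8 and 28.6 times in Vldlr-negative libraries, a log2 difference of 0.80 (exact permutation p = 0.1). Ccn5 thus changed more than Ccn4 in these libraries, with no overlap of the ratios between groups.

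Ccn3, formerly Nov (chromosome 15, 54745702 to 54754039), is a CCN protein often found to oppose the action of CCN2. It was at 205, 192 and 184 RPKM in Vldlr-positive libraries and at 427, 401 and 423 RPKM in Vldlr-negative libraries. It was the CCN gene that fell, 2.15-fold (log2 fold change -1.10, SE 0.06, limma adjusted p = 2.1e-06), with the groups fully apart. It ranked 179 by mean level in Vldlr-positive and 51 in Vldlr-negative libraries.

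The order of levels within the family changed with these differences. In Vldlr-positive libraries Ccn5 was highest, then Ccn2 and Ccn1 with overlapping ranges, then Ccn3 and Ccn4. In Vldlr-negative libraries the order was Ccn3, Ccn1, Ccn5, Ccn2 and Ccn4, and the ranges of neighbours did not overlap. Ccn3 made up 6.98% ± 0.524 of the summed CCN level in Vldlr-positive and 31.6% ± 0.569 in Vldlr-negative libraries. Ccn5 made up 42.3% ± 2.94 and Ccn2 25.7% ± 1.32 of it in Vldlr-positive libraries, against 23.8% ± 0.374 for Ccn5 and 15.4% ± 0.287 for Ccn2 in Vldlr-negative libraries. The share of Ccn1 was 24.1% ± 1.15 in Vldlr-positive and 28.3% ± 0.375 in Vldlr-negative libraries, and that of Ccn4 was under 1.04% in each library. Ccn1 thus rose in level while its share of the family was lower.

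**Figure D2:**
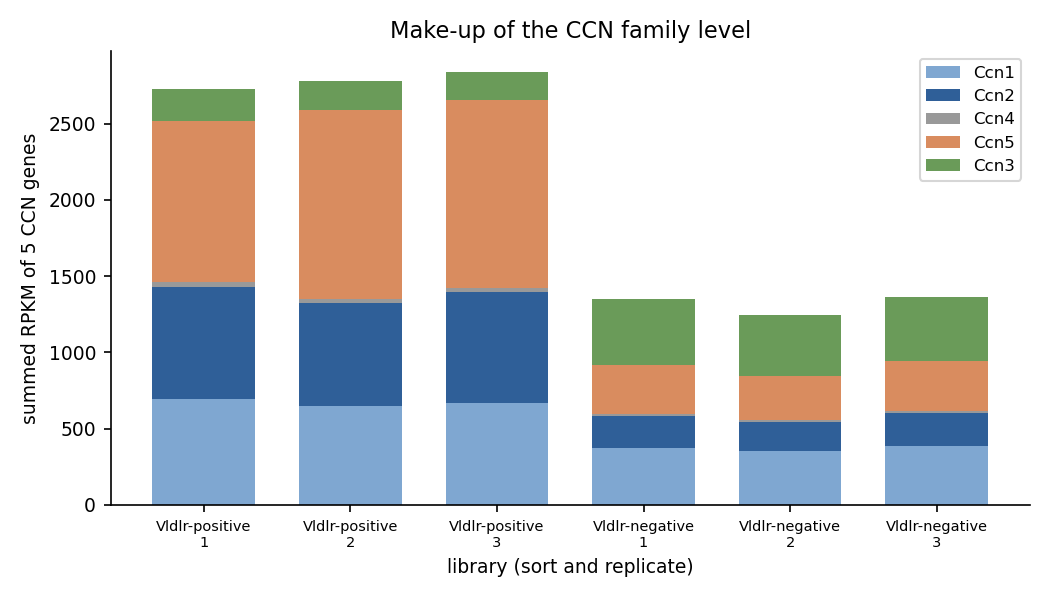
Summed RPKM of the 5 CCN genes in each library, stacked by gene, with the Vldlr-positive libraries at left and the Vldlr-negative libraries at right. The sums run from 2725 to 2836 RPKM in Vldlr-positive and from 1248 to 1364 RPKM in Vldlr-negative libraries, and Ccn3 is the tallest segment in each Vldlr-negative bar.

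Beside the CCN genes, the target genes Ankrd1 and Amotl2 were both higher in Vldlr-positive libraries, at very different levels. Ankrd1 (chromosome 19, 36111961 to 36120099), which encodes a stretch-responsive ankyrin repeat protein of muscle sarcomeres and nuclei, was at 4.49, 3.65 and 4.13 RPKM in Vldlr-positive libraries. In Vldlr-negative libraries it was at 0.781, 0.726 and 1.02 RPKM. These stood for 175 to 213 worked-out reads in Vldlr-positive and 39 to 55 in Vldlr-negative libraries, the lowest counts among the 10 genes. The mean was 4.85-fold higher in Vldlr-positive libraries. The fitted log2 fold change was 1.47 (SE 0.09, limma adjusted p = 3.0e-06) with a pseudocount of 1 and 2.16 with a pseudocount of 0.1, since the larger pseudocount shrinks changes of low genes. Ankrd1 is abundant in striated muscle, and 4 of 12 skeletal muscle marker genes had a row in the table. These markers summed to 1.48 to 1.95 RPKM in Vldlr-positive and 1.41 to 1.83 RPKM in Vldlr-negative libraries. The most abundant of them, Acta1 and Des, were each under 1 RPKM in mean in each group. Ankrd1 was itself low, and the part of any muscle cells in its values was not tested.

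Amotl2 (chromosome 9, 102716672 to 102733418) encodes an angiomotin-like junction protein that binds YAP and holds it in the cytoplasm, so it is both a target and an inhibitor. It was at 82.3, 77.1 and 75.7 RPKM in Vldlr-positive libraries and at 51.3, 50.9 and 48.9 RPKM in Vldlr-negative libraries. The groups did not overlap and the rise was 1.56-fold (log2 fold change 0.63, SE 0.06, limma adjusted p = 2.9e-05). It did not pass the test against a 1.5-fold change.

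The coactivator genes changed the other way and by little. Yap1 (chromosome 9, 7931999 to 8004596) was at 20.3, 20.0 and 19.7 RPKM in Vldlr-positive libraries and at 22.9, 23.2 and 22.4 RPKM in Vldlr-negative libraries. It was 1.14-fold lower (log2 fold change -0.18, SE 0.05, limma adjusted p = 0.011), and the call was lost without Vldlr-positive replicate 3 (limma adjusted p = 0.051, log2 fold change -0.17). Exons of Gm20416 on the opposite strand cover 116 bases of Yap1 exons. Wwtr1 (chromosome 3, 57455649 to 57575910), which encodes TAZ, was at 37.8, 35.0 and 35.9 RPKM in Vldlr-positive libraries and at 45.4, 47.0 and 44.2 RPKM in Vldlr-negative libraries. It was 1.26-fold lower (log2 fold change -0.32, SE 0.05, limma adjusted p = 0.0013). Both groups of libraries were tight for these genes, so a small difference was enough to separate them.

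By RPKM, Wwtr1 was the more abundant coactivator RNA in every library. It was 1.87, 1.75 and 1.82 times the level of Yap1 in Vldlr-positive libraries and 1.98, 2.03 and 1.98 times in Vldlr-negative libraries. This order rests on merged exon lengths of 4779 bases for Wwtr1 and 9257 bases for Yap1. In worked-out reads, Yap1 had 3022 to 3085 and Wwtr1 2780 to 2974 in Vldlr-positive libraries. In Vldlr-negative libraries Yap1 had 3855 to 3994 reads and Wwtr1 3937 to 4185. The ratios did not overlap between the groups, with a log2 difference of -0.14 (exact permutation p = 0.1). The summed level of Yap1 and Wwtr1 was 56.2 ± 1.63 RPKM in Vldlr-positive and 68.4 ± 1.81 RPKM in Vldlr-negative libraries (SD, n = 3 each).

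Tead1 (chromosome 7, 112679318 to 112906807), a TEAD factor that brings YAP and TAZ to DNA, was at 21, 15.7 and 16.8 RPKM in Vldlr-positive libraries. It was at 16.6, 16.2 and 14.9 RPKM in Vldlr-negative libraries, and the groups overlapped. The log2 fold change was 0.15 with a 95% interval from -0.085 to 0.38 (limma adjusted p = 0.243). Without Vldlr-positive replicate 1 it was 0.030. Of its paralogs, Tead2 was at 5.39 ± 0.258 RPKM in Vldlr-positive and 5.96 ± 0.402 RPKM in Vldlr-negative libraries and was not called (log2 fold change -0.12, 95% interval -0.27 to 0.026). Tead3 fell 1.19-fold to 5.56 ± 0.311 RPKM in Vldlr-positive libraries, against 6.63 ± 0.185 RPKM in Vldlr-negative libraries (limma adjusted p = 0.013). Tead4 was under the filter, at 0.856 ± 0.123 RPKM in Vldlr-positive and 0.632 ± 0.129 RPKM in Vldlr-negative libraries. Tead1 made up 59.9% ± 4.29 of the summed TEAD level in Vldlr-positive and 54.6% ± 2.46 in Vldlr-negative libraries, so it was the leading TEAD RNA by RPKM in each group.

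**Figure D3:**
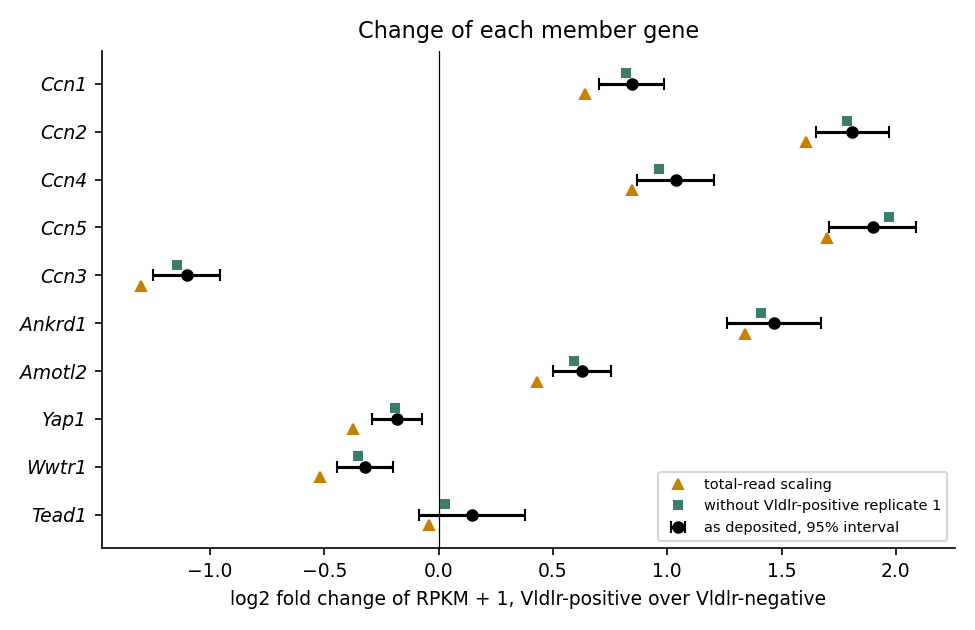
Log2 fold change of RPKM + 1, Vldlr-positive over Vldlr-negative, for each of the 10 genes: black points with 95% limma intervals are the values as deposited, orange triangles the values with total-read scaling and green squares those without Vldlr-positive replicate 1. Ccn1, Ccn2, Ccn4, Ccn5, Ankrd1 and Amotl2 lie above 0 and Ccn3, Yap1 and Wwtr1 below 0 in all of them, while Tead1 lies at 0.15, -0.044 and 0.030.

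The directions depend on how libraries are scaled to each other only for Tead1 among the 10 genes. Scaling by total reads lowered the log2 fold changes of all tested genes by a median of 0.17, because the deposited values carry a library factor other than the read total, of 0.931 to 0.938 in Vldlr-positive and 1.07 to 1.08 in Vldlr-negative libraries. With it 1890 genes were called higher and 5482 lower, against 3602 and 3167 as deposited. The log2 fold changes were then 1.61 for Ccn2, 1.70 for Ccn5, 0.64 for Ccn1, 0.43 for Amotl2, -1.30 for Ccn3, -0.38 for Yap1, -0.52 for Wwtr1 and -0.044 for Tead1.

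A wider YAP/TAZ target signature moved both ways. All 22 of its genes were tested, of which 11 rose, 7 fell and 4 did not pass. Over all tested genes 29.7% rose and 26.1% fell. The median log2 fold change of the list was 0.24, against 0.015 over all tested genes. Of the 11 that rose, 4 were Ccn1, Ccn2, Ankrd1 and Amotl2. Among the other 18 genes, 7 rose, 7 fell and 4 did not pass, with a median of -0.074. The genes that rose included the secreted matrix gene Ccdc80, 2.43-fold higher at 663 ± 15 RPKM in Vldlr-positive libraries, and the growth factor gene Tgfb2, 1.78-fold higher at 51.5 ± 3.41 RPKM. The kinase gene Nuak2 rose 1.69-fold and the receptor tyrosine kinase gene Axl 1.5-fold. The genes that fell included the tissue factor gene F3, 2.20-fold lower at 14.2 ± 0.617 RPKM in Vldlr-positive libraries, against 31.2 ± 1.08 RPKM in Vldlr-negative libraries. Fjx1 was 2.81-fold lower, Rbms3 2.25-fold lower and Nt5e, which encodes the surface enzyme CD73, 2.17-fold lower. With total-read scaling, 9 of the 22 rose and 10 fell, and the median was 0.045. That scaling called 1890 of all 12116 tested genes higher and 5482 lower.

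**Figure D4:**
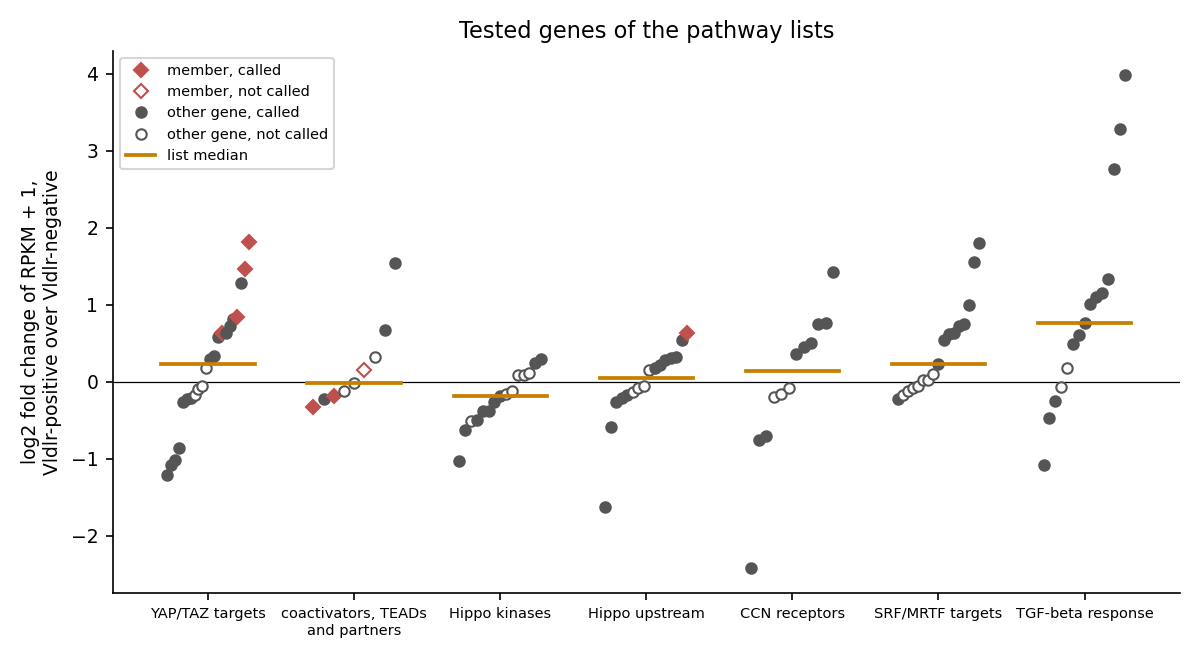
Log2 fold change of RPKM + 1, Vldlr-positive over Vldlr-negative, of each tested gene of 7 pathway lists, ordered within a list; red diamonds are genes of the 10, grey circles other genes, filled where called, and orange lines list medians. The medians run from -0.18 for the Hippo kinases to 0.76 for the list labelled TGF-beta response, which also holds ligand, receptor and Smad genes. In the YAP/TAZ target list the 4 diamonds lie above 0 while other genes lie on both sides.

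Of 15 tested genes of the Hippo kinase cassette, 2 rose and 7 fell, with a median log2 fold change of -0.18. The shares over all tested genes were 29.7% higher and 26.1% lower. Of its terminal kinases, Lats2, also a YAP/TAZ target, rose 1.25-fold to 17 ± 1.03 RPKM in Vldlr-positive libraries, against 13.6 ± 0.501 RPKM in Vldlr-negative libraries. Lats1 was at 11.4 ± 2.10 RPKM in Vldlr-positive and 12.7 ± 0.684 RPKM in Vldlr-negative libraries and was not called (log2 fold change -0.16, 95% interval -0.41 to 0.098). Without Vldlr-positive replicate 1 it was called lower (limma adjusted p = 0.0029). The upstream kinase gene Map4k3 fell 2.11-fold and Stk3, which encodes MST2, 1.64-fold, while the scaffold gene Sav1 rose 1.21-fold. Map4k3 was the kinase list's gene past a 1.5-fold change. Scaled by total reads, 0 of these 15 genes rose and 10 fell, against 1890 and 5482 of all 12116 tested genes. Without Vldlr-positive replicate 1, 2 rose and 10 fell, and the median was -0.29. That refit called more of all tested genes too, 4103 higher and 3754 lower.

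Upstream and junctional regulators were divided. Besides Amotl2, 6 of 15 rose and 5 fell, with a median log2 fold change of -0.057, against 29.7% and 26.1% of all tested genes. With total-read scaling 1 rose and 8 fell, against 1890 and 5482 of all 12116 tested genes. The list's count that fell was 2 without Vldlr-positive replicate 2 or 3 or Vldlr-negative replicate 1 or 2. The protocadherin gene Dchs1 was at 0.346 ± 0.00453 RPKM in Vldlr-positive and 3.15 ± 0.219 RPKM in Vldlr-negative libraries. It entered the fit through the Vldlr-negative libraries alone and so had to come out lower. Of the other 14 genes, all above the filter in every library, 6 rose and 4 fell. The junction scaffold gene Tjp1 was 1.53-fold lower, while the atypical cadherin gene Fat1 was 1.47-fold and the FERM domain gene Frmd6 1.26-fold higher. Of 9 tested coactivator, TEAD and other nuclear partner genes, Yap1, Wwtr1 and Tead3 fell and 2 rose, with a median of -0.016. The 2 were the transcription factor genes Runx1, 3.41-fold higher, and Runx2, 1.82-fold higher. With total-read scaling 2 of the 9 rose and 5 fell, Tead2 among those that fell, and the median was -0.20. That scaling called 1890 of all 12116 tested genes higher and 5482 lower.

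Receptor genes for CCN proteins also moved both ways. Of 12 tested genes, 6 rose and 3 fell, with a median log2 fold change of 0.14, against 29.7% and 26.1% of all tested genes. With total-read scaling 5 of the 12 rose and 6 fell, against 1890 and 5482 of all 12116 tested genes. Without Vldlr-positive replicate 1, 6 of the 12 rose and 6 fell, and the median was 0.057. That refit called 4103 of all tested genes higher and 3754 lower. The integrin gene Itgb5 was 2.73-fold higher at 177 ± 14.1 RPKM in Vldlr-positive libraries, the proteoglycan gene Sdc4 1.69-fold, Itga6 2.13-fold and Itga5 1.38-fold higher. Itgb3 was 2.11-fold and Igf2r 1.67-fold lower. Itgb2, the integrin chain of leukocytes, was at 0.191 ± 0.0598 RPKM in Vldlr-positive and 5.42 ± 0.975 RPKM in Vldlr-negative libraries. It entered the fit through the Vldlr-negative libraries alone and so had to come out lower. Of the other 11 receptor genes, all above the filter in every library, 6 rose and 2 fell. The summed macrophage and other immune markers, given with the marker lists, were also lower in Vldlr-positive libraries, and their part in the value of Itgb2 was not tested.

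Lists of other inputs known to act on Ccn1 and Ccn2 are given for context, beside shares over all tested genes of 29.7% higher and 26.1% lower. Of 17 genes of serum response factor and MRTF, targets together with the factor genes themselves, 9 rose and 1 fell. Their median log2 fold change was 0.23. Acta2, smooth muscle actin, rose 3.48-fold, Cnn2 2.00-fold and Actb 1.68-fold. Acta2 is also among the pericyte and smooth muscle markers. With total-read scaling 8 of the 17 rose and 6 fell, against 1890 and 5482 of all 12116 tested genes. The list's count that fell was 0 without Vldlr-positive replicate 2 or Vldlr-negative replicate 1 or 2, and 2 without Vldlr-positive replicate 1. Of 15 TGF-beta genes, a list of response genes together with ligand, receptor and Smad genes, 10 rose and 3 fell, with a median of 0.76. The 3 that fell were the receptor genes Tgfbr1 and Tgfbr2 and the signal transducer gene Smad2. The count that fell was 1 without Vldlr-positive replicate 3 or Vldlr-negative replicate 1 or 2. The ligand gene Tgfb3 rose 2.25-fold, and the receptor gene Tgfbr2 fell 2.16-fold.

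Summed markers of cell types other than tendon cells differed between the groups too. Summed over 13 macrophage and other immune markers, the level was 28.0 to 35.8 RPKM in Vldlr-positive and 576 to 699.5 RPKM in Vldlr-negative libraries. Most of it was Lyz2, at 27.4 ± 3.09 RPKM in Vldlr-positive and 430 ± 38.5 RPKM in Vldlr-negative libraries. Ctss was at 0.0739 ± 0.0924 RPKM in Vldlr-positive and 35.9 ± 4.39 RPKM in Vldlr-negative libraries. The 9 Schwann and neural crest markers in the table summed to 123 to 133 RPKM in Vldlr-positive and 21.1 to 22.9 RPKM in Vldlr-negative libraries. Of these, Ngfr was at 72.2 ± 2.41 RPKM in Vldlr-positive and 4.98 ± 0.594 RPKM in Vldlr-negative libraries. S100b went the other way, at 4.50 ± 0.819 RPKM in Vldlr-positive and 15.4 ± 0.307 RPKM in Vldlr-negative libraries. For 10 endothelial markers the sums were 17.2 to 18.6 RPKM in Vldlr-positive and 4.25 to 5.06 RPKM in Vldlr-negative libraries. For 9 pericyte and smooth muscle markers they were 699.7 to 792 RPKM in Vldlr-positive and 208 to 239 RPKM in Vldlr-negative libraries, most of it Acta2. Calls are not counted for these lists of other cell types. Many of their genes reached the filter in every library of 1 group but not of the other. This was so for 8 of 11 tested immune markers, high in Vldlr-negative libraries. It was also so for 5 of 7 Schwann and 5 of 6 endothelial markers, high in Vldlr-positive libraries. The remaining 1 of the 6 endothelial markers went the other way, high in Vldlr-negative libraries. Of 6 tested pericyte and smooth muscle markers, 1 was such a gene in each direction. The endothelial cadherin gene Cdh5 was at 5.07 ± 0.195 RPKM in Vldlr-positive libraries and listed at 0 in every Vldlr-negative library. Tendon markers summed to 11277 to 12247 RPKM in Vldlr-positive and 3475 to 3668 RPKM in Vldlr-negative libraries. The most abundant of them were Col1a1, given above, and Fmod, at 3152 ± 113 RPKM in Vldlr-positive and 288 ± 8.28 RPKM in Vldlr-negative libraries. All 10 tendon markers were above the filter in every library, and 8 rose and 1 fell, against 29.7% and 26.1% of all tested genes. With total-read scaling 6 of these markers rose and 2 fell, against 1890 and 5482 of all 12116 tested genes. In the test against a 1.5-fold change 4 of them rose and 1 fell, beside 537 and 606 of all tested genes. Ccn1, Ccn2 and Amotl2 are also made by endothelial and smooth muscle cells, and the part of any such cells in the values of the 10 genes was not tested.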

How the data were processed

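RNA was measured in 6 libraries, 3 per sort. Per the labels' protocols, Trizol was used for RNA and a SMARTER mRNA kit for libraries. The deposited table gave RPKM. Its header names no unit, and the unit was taken from the values: multiplied by merged exon lengths of GENCODE M21 (GRCm38), the RPKM values of 15690 of 15691 genes with a length were whole multiples of 1 step per library, within 0.01 reads, the exception being Vldlr. Build mm10, Cell Ranger and bcl2fastq 1.8.4 are named in the submitters' processing notes, with no role. The sources used here do not name an aligner, a counting program or a strand setting. In 20 rows a date stood in place of the gene name, and none of the 10 genes was among them.

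The 12116 genes that reached 1 RPKM in 3 or more libraries entered limma 3.58.1 (R 4.3.3, statmod 1.5.0, with the trend and robust options) on log2(RPKM + 1), with group as the only term, Benjamini-Hochberg adjustment over all tested genes and a threshold of 0.05. The pseudocount makes changes of low genes look smaller than they are. Folds are ratios of mean RPKM. Gene pairs were compared by exact permutation over libraries (scipy 1.17.1). The procedure was tested on simulated data. The 10 genes and all lists were chosen with earlier results of these data known, so list counts are descriptions. The genes other than the 10 were named by a rule: per list up to 4 called higher and 4 called lower of lowest adjusted p, with Tead2, Tead3, Tead4, Lats1 and Lats2 always, and the text gives those that a result turns on. A gene that the rule names is not reported here. Alternatives were other scalings, filters, a pseudocount of 0.1, limma voom, a fit without the robust option, a replicate block, a test against a 1.5-fold change, and leaving out each library in turn.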

Additional observations from a re-analysis of the deposited data

How the results depend on the processing

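Across 159 refits of the 10 genes, 154 kept both direction and call, 4 lost the call and 1 changed direction. A test against a 1.5-fold change called 537 of all genes higher and 606 lower, and of the 10 genes 5 higher and 1 lower. Amotl2 (log2 fold change 0.63), Yap1 (-0.18) and Wwtr1 (-0.32) lost their calls there. Tead1, not called, changed direction with total-read scaling (-0.044). Leaving out each library in turn gave Yap1 log2 fold changes from -0.20 to -0.17, and its adjusted p over all alternatives other than the 1.5-fold test ran from 2.3e-04 to 0.051 in limma. Over all genes, total-read scaling gave 1890 higher and 5482 lower, and a filter at 5 RPKM, which tests fewer genes and drops Ankrd1, gave 1800 lower. List medians close to 0 changed sign: the coactivator and TEAD list (-0.016) to 0.066 without a filter and 0.012 with upper-quartile scaling, the Hippo upstream list (0.047) to -0.11 with total-read scaling, and the receptor list (0.14) to -0.11 without a filter and -0.061 with total-read scaling. For these the cause was not tested. Same-numbered replicates correlated at 0.30, -0.06 and 0.31 in their deviations from group means, and 4 of 6 libraries correlated best with their own number. These values did not settle whether the numbers are pairs. The labels do not say that they are, so the main fit used no pairs. With a replicate block 3738 genes were higher and 3315 lower, and 6 of the 10 genes were called higher and 3 lower, as without it. At 39 to 55 reads per Vldlr-negative library, Ankrd1 is limited by counting error more than the other 9 genes.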
